A study of Mus musculus with 2 samples.

Results

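The genes described here are 10 of the 31053 genes in the deposited count tables, named for adhesion between nerve cells and for the growth of neurites, the processes that nerve cells extend. They are *Chl1*, *L1cam* and *Nrcam* of the L1 family, *Ncam1*, *Cntn1*, *Lgi1*, *Lgi2*, *Gap43*, *Map2* and *Tmeff1*. They were chosen on their counts in these same libraries, so their levels and ratios are a description and no test is given for them. The data are scRNA-Seq of fibro/adipogenic progenitors (FAPs), the mesenchymal cells between muscle fibers, sorted as Lin-Vcam1-Sca1+ cells from limb muscle of 3-week-old mice labelled C57BL/6, of lines backcrossed to C57BL/6J. One library came from Bap1f/f mice, which carry the conditional allele without Cre and are called Bap1WT. The other came from Prx1-Cre;Bap1f/f mice, called Bap1ΔMPC, in which Cre is driven by a promoter active in limb mesenchyme and removes part of *Bap1*, the gene of a nuclear deubiquitinase. Both groups carried the conditional allele, and the number of animals behind each library is not given in the sources used here. With 1 library per genotype no difference has a replicate check, and genotype and library cannot be told apart.

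L1 family proteins, NCAM1 and contactins are adhesion molecules of the immunoglobulin superfamily on axons and glia. L1 family proteins bind ankyrins inside the cell, and NCAM1 is also known from muscle fibers that have lost their nerve. LGI proteins are secreted and bind ADAM receptors at synapses, GAP43 lies at the growth cone, and MAP2 binds microtubules in dendrites.

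The library labelled Bap1WT held 4103 cells and 51015705 unique molecular identifiers (UMIs, 1 per counted transcript molecule), and the library labelled Bap1ΔMPC held 4378 cells and 49540066 UMIs, with medians of 12232 and 11017.5 UMIs per cell. Levels are UMIs summed over cells per 1000000 UMIs of the same cells (CPM), and all intervals are exact at 95% and cover counting error only. Cells were called Dpp4-type when *Pi16*, *Sema3c*, *Anxa3* and *Efemp1* together reached 25 UMIs per 10000, which took 1050 cells (25.6%) of the Bap1WT library and 1251 (28.6%) of the Bap1ΔMPC library. The remaining 3053 and 3127 cells are called other cells. *Bap1* itself was not lower in the library labelled Bap1ΔMPC, with 16.9 and 21.3 CPM in Dpp4-type cells and 17.8 and 21.8 CPM in other cells. The counts come from the 3' end of transcripts and do not show which exons a transcript held, so *Bap1* checks neither label and each direction given is between the libraries as labelled. Only 5 cell barcodes of the 8481 cells occurred in both libraries. The FAP markers *Pdgfra*, *Ly6a*, *Dcn*, *Cd34* and *Col1a1* were all present in both libraries, at a summed level of 38019 CPM in the Bap1WT library and 24918 CPM in the Bap1ΔMPC library. Ratios are given as Bap1ΔMPC over Bap1WT. In all cells the ratio was 0.464 for *Col1a1*, which went from 21267 to 9859 CPM, 0.84 for *Dcn* and 0.86 for *Pdgfra*. *Ly6a* and *Cd34* went the other way, with ratios of 1.22 and 1.135. Of markers outside the rule, *Dpp4*, *Sbsn*, *Has1*, *Efhd1* and *Igfbp5* summed to 5667 and 5045 CPM in Dpp4-type cells and to 1073 and 1492 CPM in other cells, and *Cxcl14*, *Smoc2*, *Hsd11b1*, *Col15a1* and *Crispld2* summed to 438 and 457 CPM and to 2982 and 2919 CPM. The near-level sums of this last list held shifts in both directions. In other cells the ratio was 3.02 for *Cxcl14* and 1.15 for *Col15a1*. It was 0.398, 0.570 and 0.470 there for *Smoc2*, *Hsd11b1* and *Crispld2*. In Dpp4-type cells the ratio was 6.28 for *Cxcl14* and from 0.642 (*Smoc2*) to 1.395 (*Col15a1*) for the rest.

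Markers of nerve cells and glia were counted in the same cells, because the 10 genes are best known from those cells. Of 8 neuron markers, *Chat* had no UMI in any group, and *Snap25* and *Elavl4* had 0 to 2 UMIs. The rest were counted in both libraries. In all cells of the Bap1WT and Bap1ΔMPC libraries *Elavl3* had 104 and 123 UMIs, *Rbfox3* 73 and 58 and *Isl1* 73 and 60. *Syp* had 65 and 56 UMIs and *Syt1* 4 and 6. The neuron list summed to 5.76 to 6.38 CPM in the 4 groups of cells. The glial factor *Sox10* had 9 UMIs in other cells of the Bap1WT library and none in the other 3 groups, and *Foxd3* had 8 UMIs there and 0 to 1 elsewhere. The 8 Schwann cell markers summed to 17.4 and 40.1 CPM in Dpp4-type cells and to 24.3 and 80.3 CPM in other cells of the Bap1WT and Bap1ΔMPC libraries. Most of this was *S100b*, with 9.92, 35.4, 19.4 and 75.7 CPM in the same order. *Pax7*, *Myf5* and *Myod1* of muscle stem cells and *Ptprc* of blood cells had no UMI. The study's methods describe removing cells with high levels of markers of muscle-resident cells other than FAPs, so absence from the sort and removal by that filter cannot be told apart for these markers. The 7 muscle stem cell markers summed to 11.9 and 29.4 CPM in Dpp4-type cells and to 4.96 and 5.72 CPM in other cells. Endothelial markers summed to 1.42 and 2.37 CPM and to 6.04 and 11.04 CPM, and blood cell markers to 5.17 and 9.55 CPM and to 6.15 and 14.5 CPM. Perineurial markers summed to 70.8 and 58.6 CPM and to 59.5 and 60.8 CPM. *Tjp1* gave 521 of the 999 perineurial UMIs in Dpp4-type cells of the Bap1WT library and 1542 of the 2194 in its other cells. Its ratios were 1.10 and 0.941 in Dpp4-type and other cells. The rest ranged from 0.361 (*Krt19*) to 0.956 (*Itgb4*) in Dpp4-type cells. In other cells the rest ranged from 0.419 (*Lypd2*) to 2.07 (*Krt19*), so that near-level sum held shifts in both directions. Tendon markers (*Tnmd*, *Scx*, *Chad* and *Cilp2*) summed to 4.25 and 17.1 CPM in Dpp4-type cells and to 40.4 and 139 CPM in other cells. Cycling markers summed to 43.8 and 67.1 CPM in Dpp4-type cells and to 36.8 and 71.2 CPM in other cells. In Dpp4-type cells of the Bap1ΔMPC library *Des* gave 433 of the 434 muscle stem cell marker UMIs. Single markers went against their lists, with a ratio of 0.376 for *Mbp* and 0.455 for *Erbb3* in Dpp4-type cells, and of 0.289 for *Cdh5* in other cells. The summed Schwann cell, muscle stem cell, endothelial, blood cell, tendon and cycling lists were higher in the Bap1ΔMPC library in both cell groups, while the neuron and perineurial lists were lower in Dpp4-type cells and nearly level in other cells. Their part in the ratios of the 10 genes was not tested beyond the values given with them.

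In the mouse genome build GRCm38 (mm10) the genes lie on 10 different chromosomes. In GENCODE annotation the L1 family genes are *Chl1* at chr6:103510586-103750211, *L1cam* at chrX:73853778-73896105 and *Nrcam* at chr12:44328885-44601964. *Ncam1* lies at chr9:49502136-49798925 and *Cntn1* at chr15:92051165-92341967. The LGI genes are *Lgi1* at chr19:38264536-38312214 and *Lgi2* at chr5:52533517-52566462. *Gap43* lies at chr16:42248442-42340651, *Map2* at chr1:66175273-66442583 and *Tmeff1* at chr4:48585174-48663131. *L1cam*, *Ncam1*, *Lgi2* and *Gap43* are on the minus strand and the others on the plus strand. Exons of 4 of the 10 overlap exons of another gene. *Ncam1*, *Lgi1* and *Map2* share 417, 532 and 124 bases with the antisense genes *Gm11149*, *Gm42723* and *Gm10558*, which had 0 to 2 UMIs per library, and *L1cam* shares 100 bases with *Arhgap4*, which had 20 and 28 UMIs.

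Promoter sequences from RefSeq, from 250 bases before to 50 bases after a gene's start, matched 8 of the 10 genes. They are shown for the genes with the largest ratios between the libraries, *Chl1* and *Lgi1*, which had fewer UMIs in Dpp4-type cells of the Bap1ΔMPC library, and *Cntn1* and *Map2*, which had more UMIs there and in other cells. The windows are chr6:103510626-103510925, chr19:38264437-38264736, chr15:92050915-92051214 (the first of 3 for *Cntn1*) and chr1:66175079-66175378, all GRCm38.p6, plus strand, 5′ to 3′, with each CG dinucleotide in capitals.
Chl1: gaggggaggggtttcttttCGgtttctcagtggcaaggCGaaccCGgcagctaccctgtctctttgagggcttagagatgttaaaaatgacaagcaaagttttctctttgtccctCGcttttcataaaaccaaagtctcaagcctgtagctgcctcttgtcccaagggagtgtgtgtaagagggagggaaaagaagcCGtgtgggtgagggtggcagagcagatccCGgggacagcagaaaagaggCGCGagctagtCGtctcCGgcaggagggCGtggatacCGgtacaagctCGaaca
Lgi1: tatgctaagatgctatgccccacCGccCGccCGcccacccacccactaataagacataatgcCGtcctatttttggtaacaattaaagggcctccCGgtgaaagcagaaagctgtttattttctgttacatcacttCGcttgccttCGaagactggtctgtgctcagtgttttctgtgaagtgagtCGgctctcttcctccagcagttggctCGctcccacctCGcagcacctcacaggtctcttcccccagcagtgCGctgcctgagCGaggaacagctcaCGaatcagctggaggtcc
Cntn1: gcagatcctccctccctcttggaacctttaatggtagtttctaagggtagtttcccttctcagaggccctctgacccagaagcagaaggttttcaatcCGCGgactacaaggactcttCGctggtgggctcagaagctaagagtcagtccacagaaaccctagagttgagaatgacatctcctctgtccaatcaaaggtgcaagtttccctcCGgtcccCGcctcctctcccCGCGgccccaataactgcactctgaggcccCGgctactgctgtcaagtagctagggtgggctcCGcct
Map2: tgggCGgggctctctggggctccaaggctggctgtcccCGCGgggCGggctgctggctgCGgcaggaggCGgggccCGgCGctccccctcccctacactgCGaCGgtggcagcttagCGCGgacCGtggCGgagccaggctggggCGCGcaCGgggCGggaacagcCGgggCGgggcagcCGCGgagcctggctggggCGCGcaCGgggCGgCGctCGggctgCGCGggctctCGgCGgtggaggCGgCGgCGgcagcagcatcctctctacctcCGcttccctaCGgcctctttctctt
The *Chl1* and *Lgi1* windows each held 13 CG dinucleotides, the *Cntn1* window held 9 and the *Map2* window held 37. Over all 32851 RefSeq windows of this length the median was 7, with an interquartile range of 3 to 20. The windows of *Nrcam*, *Lgi2* and *Tmeff1* held 37, 27 and 45, so the CG-rich windows included genes with higher and with lower levels in the Bap1ΔMPC library. TATAAA, read on both strands, was in none of the 4 windows shown and in 13.6% of all windows. CCAAT, read on both strands, was in the *Cntn1* window and in 37.4% of all windows.

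**Figure D1:**
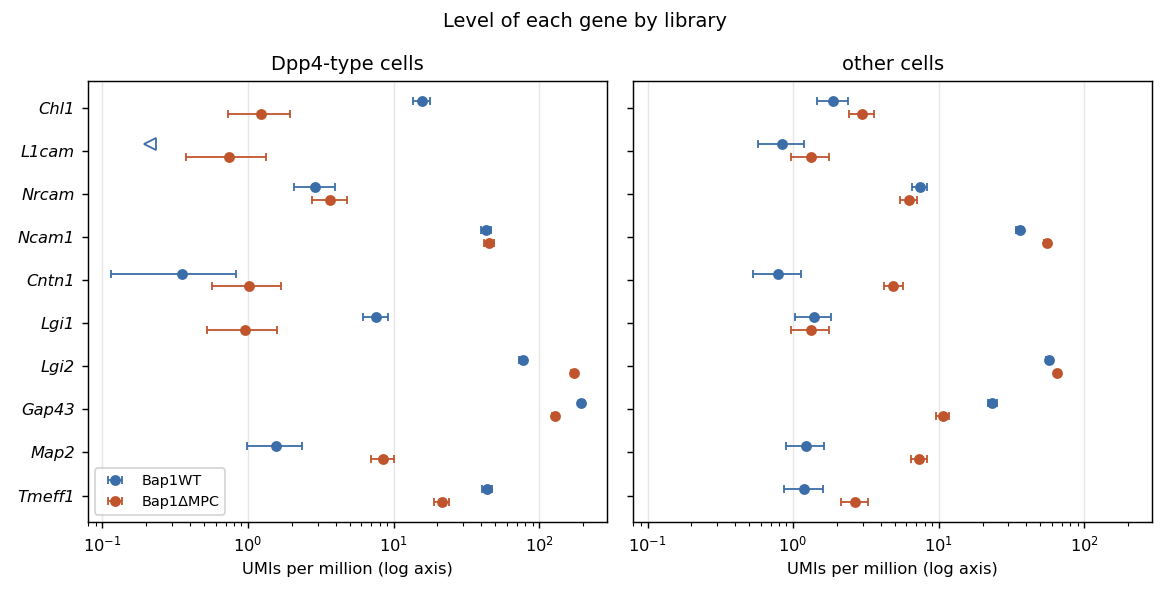
Level of each gene in CPM (log axis) in Dpp4-type cells (left) and other cells (right) of the Bap1WT (blue) and Bap1ΔMPC (orange) libraries, 1 library each; bars are exact Poisson 95% intervals for counting error, and the open triangle marks *L1cam* at the level of 3 UMIs because no UMI was seen. In Dpp4-type cells *Chl1* lay at 15.7 and 1.22 CPM and *Lgi1* at 7.51 and 0.948 CPM, whereas in other cells *Chl1* lay at 1.87 and 2.96 CPM and *Lgi1* at 1.38 and 1.32 CPM.

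Among the L1 family genes, *Chl1*, the close homolog of L1, was far lower in Dpp4-type cells of the library labelled Bap1ΔMPC, and differed in the opposite direction in other cells. In Dpp4-type cells *Chl1* had 221 UMIs (15.7 CPM, interval 13.7 to 17.9) in the Bap1WT library and 18 UMIs (1.22 CPM, interval 0.722 to 1.93) in the Bap1ΔMPC library. The intervals did not overlap, and the level was 12.8-fold lower in the library labelled Bap1ΔMPC (ratio 0.0779, interval 0.0453 to 0.126). A *Chl1* UMI was seen in 148 of 1050 Dpp4-type cells (14.1%) and in 14 of 1251 (1.12%), with up to 8 UMIs in a cell of the first library and up to 3 in the second. With each cell thinned to 5000 UMIs, which left out 34 and 49 shallower cells, it was seen in 60 of 1016 and in 1 of 1202 cells. In other cells *Chl1* had 69 UMIs (1.87 CPM) and 103 UMIs (2.96 CPM), a ratio of 1.58 (interval 1.16 to 2.18) with the Bap1ΔMPC library higher. *Chl1* was thus 8.37 times as high in Dpp4-type cells as in other cells of the Bap1WT library and 0.412 times as high in the Bap1ΔMPC library. At a score threshold of 50 in place of 25, the log2 ratio in other cells was -0.01 in place of 0.66.

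*L1cam*, the founding gene of the family, was at the edge of detection. It had no UMI in the 1050 Dpp4-type cells of the Bap1WT library, with an exact interval of up to 0.351% of cells. The floor of 3 counts stands at 0.286% of these cells, below that limit. *L1cam* had 11 UMIs in 9 Dpp4-type cells (0.719%) of the Bap1ΔMPC library. With the floor of 3 UMIs in place of 0 for the Bap1WT cells, the level was 3.51-fold higher in the library labelled Bap1ΔMPC. No interval was given for this value, which leaves out the counting error of the 11 UMIs. In other cells it had 31 UMIs (0.840 CPM) and 46 UMIs (1.32 CPM), with a ratio of 1.58 and an interval of 0.977 to 2.57 that included 1.

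*Nrcam*, which joins axons to glia at nodes of Ranvier, differed little between the libraries. It had 41 and 54 UMIs (2.91 and 3.66 CPM) in Dpp4-type cells and 273 and 217 UMIs (7.40 and 6.24 CPM) in other cells. The ratios were 1.26 (interval 0.823 to 1.94) and 0.844 (interval 0.703 to 1.01), and both intervals included 1. *Nrcam* was higher in other cells than in Dpp4-type cells of both libraries, by 2.55-fold and 1.71-fold.

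*Ncam1*, seen in 24.3% to 33.5% of the cells of each group, was higher in other cells of the library labelled Bap1ΔMPC. In Dpp4-type cells it had 605 and 664 UMIs (42.9 and 45.0 CPM), a ratio of 1.05 with an interval of 0.938 to 1.17. In other cells it had 1327 UMIs (36.0 CPM) in the Bap1WT library and 1932 UMIs (55.6 CPM) in the Bap1ΔMPC library, a ratio of 1.55 (interval 1.44 to 1.66). The groups of other cells therefore lay apart by more than counting error, and the Dpp4-type groups did not.

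*Cntn1*, a contactin held on the membrane by a lipid anchor, was higher in the library labelled Bap1ΔMPC. In other cells it had 29 UMIs (0.786 CPM) in the Bap1WT library and 170 UMIs (4.89 CPM) in the Bap1ΔMPC library, 6.22-fold higher (interval 4.18 to 9.57), and the cells with a UMI went from 23 (0.753%) to 121 (3.87%). In Dpp4-type cells it had 5 and 15 UMIs, and the ratio of 2.87 had an interval of 0.991 to 10.1.

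Of the LGI genes, *Lgi1* was lower and *Lgi2* higher in Dpp4-type cells of the library labelled Bap1ΔMPC. *Lgi1*, mutated in an inherited epilepsy, had 106 UMIs (7.51 CPM, interval 6.15 to 9.08) in Dpp4-type cells of the Bap1WT library and 14 UMIs (0.948 CPM, interval 0.518 to 1.59) in those of the Bap1ΔMPC library, 7.92-fold lower. Its UMIs were in 66 cells (6.29%) and 13 cells (1.04%). In other cells it had 51 and 46 UMIs (1.38 and 1.32 CPM), with a ratio of 0.957 and an interval of 0.628 to 1.46. *Lgi1*, like *Chl1*, was higher in Dpp4-type than in other cells of the Bap1WT library (5.43-fold, interval 3.86 to 7.75), and the ratio in the Bap1ΔMPC library was 0.717 (interval 0.364 to 1.33).

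*Lgi2* had 1087 UMIs (77.0 CPM) in Dpp4-type cells of the Bap1WT library and 2546 UMIs (172 CPM) in those of the Bap1ΔMPC library, a ratio of 2.24 (interval 2.09 to 2.41). Its UMIs were in 46.0% and 64.8% of Dpp4-type cells, and in 27.6% and 47.7% after thinning. In other cells the levels were 57.4 and 65.1 CPM, with a ratio of 1.14 (interval 1.07 to 1.21). On the log2 scale this ratio of other cells was 0.18, against a median of 0.11 over all genes tested there, and TMM scaling, which puts that median at -0.01, gave 0.07.

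*Gap43* was lower in both cell groups of the library labelled Bap1ΔMPC. Dpp4-type cells had 2751 UMIs (195 CPM, interval 188 to 202) and 1899 UMIs (129 CPM, interval 123 to 135), a ratio of 0.660. The share of Dpp4-type cells with a UMI went from 73.2% to 40.9%, and from 49.8% to 30.1% after thinning. The highest count in a cell was 15 in the Bap1WT library and 24 in the Bap1ΔMPC library, and the 5% of Dpp4-type cells with the most *Gap43* held 20.2% and 35.3% of its UMIs. In the second library the transcript was thus spread over a smaller share of the cells. In other cells *Gap43* had 862 UMIs (23.4 CPM) and 370 UMIs (10.6 CPM), a ratio of 0.456 (interval 0.402 to 0.515). This last ratio, -1.14 on the log2 scale, moved with the rule for Dpp4-type cells, to -0.79 with cells named by a *Dpp4* UMI, to -0.40 at a threshold of 50 and to -1.66 at a threshold of 10.

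*Map2* was higher in both cell groups of the library labelled Bap1ΔMPC by about the same factor. It had 22 UMIs (1.56 CPM) and 124 UMIs (8.40 CPM) in Dpp4-type cells, 5.39-fold higher (interval 3.41 to 8.91). It had 45 UMIs (1.22 CPM) and 256 UMIs (7.36 CPM) in other cells, 6.04-fold higher (interval 4.38 to 8.48). The share of cells with a UMI went from 1.81% to 7.67% and from 1.34% to 6.49%, and cells with 5 or more UMIs were rare, with 1 in each group of the Bap1ΔMPC library. Within each library *Map2* did not differ between Dpp4-type and other cells beyond counting error, with ratios of 1.28 (interval 0.731 to 2.17) and 1.14 (interval 0.913 to 1.42).

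*Tmeff1*, a membrane protein with follistatin-like and EGF-like domains, went in opposite directions in the 2 cell groups. In Dpp4-type cells it had 622 UMIs (44.1 CPM) and 315 UMIs (21.3 CPM), a ratio of 0.484 (interval 0.421 to 0.555). In other cells it had 44 UMIs (1.19 CPM) and 92 UMIs (2.65 CPM), a ratio of 2.22 (interval 1.53 to 3.26). It was 37.0-fold higher in Dpp4-type than in other cells of the Bap1WT library and 8.06-fold higher in the Bap1ΔMPC library. No cell type known to lack these genes was in the sort, so the share of cells that free RNA gives was not measured. For *Tmeff1* the share ranged from 1.34% to 32.1% of cells between groups.

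**Figure D2:**
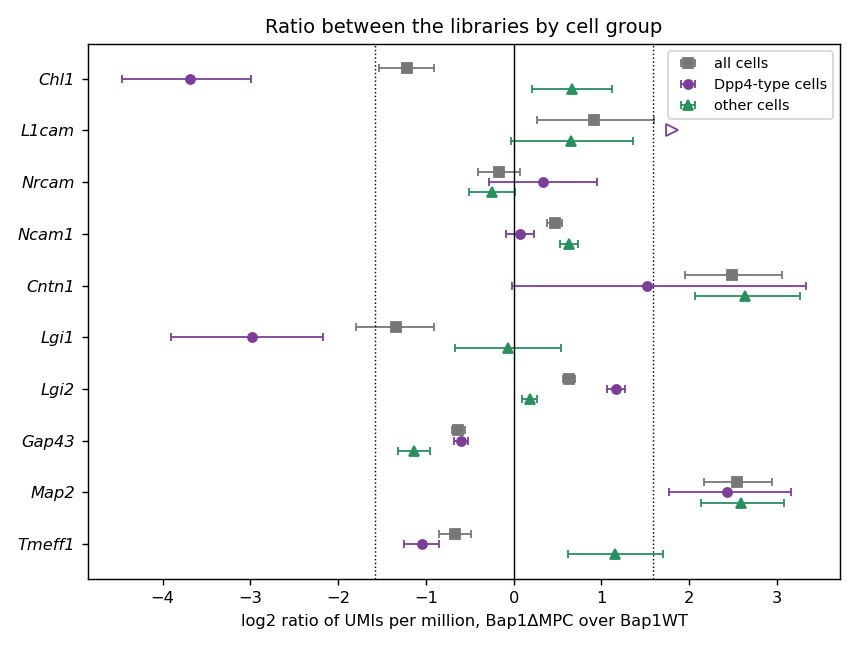
Log2 ratio of CPM, Bap1ΔMPC over Bap1WT, for each gene in all cells (grey squares), Dpp4-type cells (purple circles) and other cells (green triangles), with exact 95% intervals for counting error. Dotted lines mark 3-fold, and the open triangle is *L1cam* with 3 UMIs in place of 0 in the Bap1WT library. *Chl1* and *Tmeff1* lie on opposite sides of 0 in the 2 cell groups, at -3.68 and 0.66 and at -1.05 and 1.15.

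Counted by size, 2 of the 10 genes were over 3-fold higher in all cells of the Bap1ΔMPC library (*Cntn1* and *Map2*) and none was over 3-fold lower, where 3.15% and 2.12% of 14729 genes with 20 or more UMIs were. In Dpp4-type cells 9 of the 10 had 20 or more UMIs. Of these, *Map2* was over 3-fold higher and *Chl1* and *Lgi1* over 3-fold lower, where 1.89% and 1.63% of 12517 genes were. In other cells *Cntn1* and *Map2* were over 3-fold higher and none was over 3-fold lower, where 3.68% and 2.18% of 14271 genes were. The 10 genes were chosen on these ratios, so nothing is read from the counts. Among all genes tested in Dpp4-type cells, *Chl1* ranked 10th and *Lgi1* 20th from the lowest ratio, and *Map2* 84th from the highest.

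**Figure D3:**
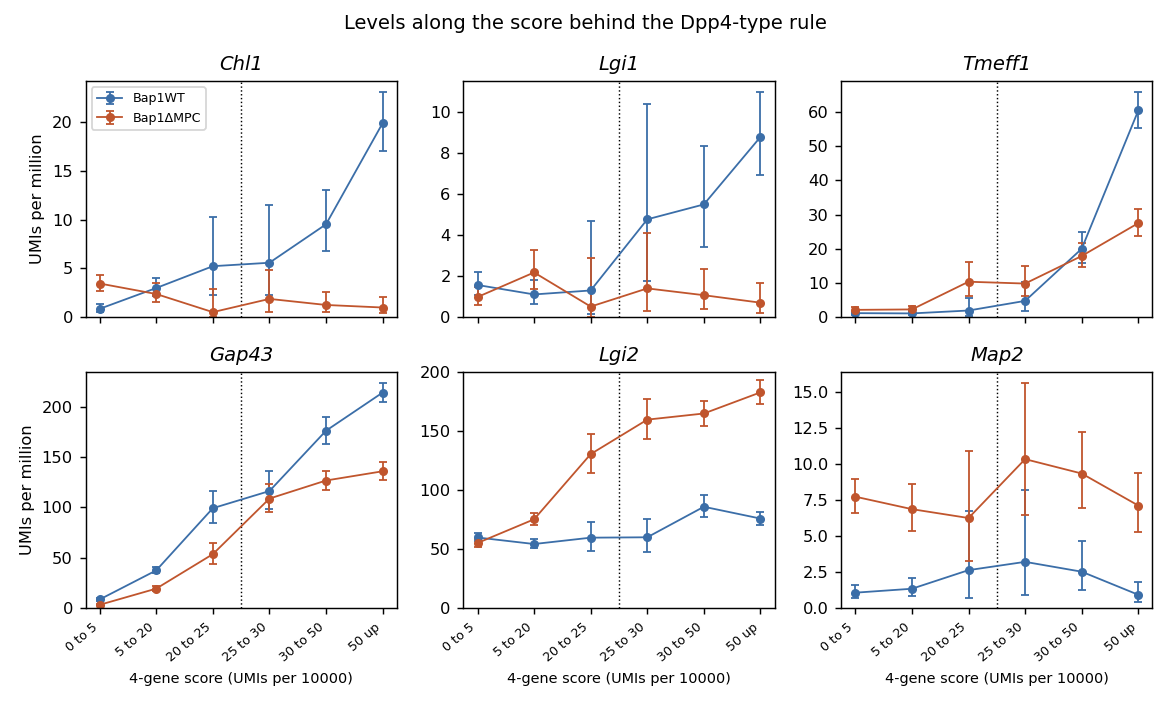
Level in CPM of 6 genes in ranges of the summed score of *Pi16*, *Sema3c*, *Anxa3* and *Efemp1* in the Bap1WT (blue) and Bap1ΔMPC (orange) libraries, with exact Poisson 95% intervals; the dotted line is the threshold of 25. In the Bap1WT library *Chl1* reaches 19.9 CPM and *Gap43* 214 CPM in the highest range, while in the Bap1ΔMPC library *Chl1* is highest, at 3.45 CPM, in the lowest range.

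The levels along the 4-gene score showed how far the threshold of 25 mattered. In the Bap1WT library *Chl1* stood at 0.858 CPM in cells with a score under 5 and at 19.9 CPM in cells with 50 or more. In the Bap1ΔMPC library it stood at 3.45 CPM and 0.993 CPM in the same ranges, so the order was turned. Just outside the threshold, in the 115 and 165 cells with a score of 20 to 25, *Chl1* had 5.22 and 0.519 CPM, and just inside, in the 95 and 172 cells with 25 to 30, it had 5.58 and 1.88 CPM. *Gap43* had 99.2 and 53.4 CPM just outside and 116 and 109 CPM just inside. *Lgi2* had 59.4 and 130 CPM just outside and 59.7 and 159 CPM just inside, so its higher level in the Bap1ΔMPC library did not begin at the threshold. *Tmeff1* just outside and just inside stood at 1.96 and 4.78 CPM in the Bap1WT library and at 10.4 and 9.85 CPM in the Bap1ΔMPC library, and reached 60.5 and 27.5 CPM at a score of 50 or more.

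Dpp4-type cells of the Bap1ΔMPC library differed among themselves in how closely their other genes matched the Bap1WT library. Each cell was given a score, taken over the genes that differed over 3-fold between the other cells of the libraries, 149 higher in Bap1WT and 219 higher in Bap1ΔMPC. The score was the percentage of the UMIs of these genes that came from the 149, and the genes described here were not among them. The score is a range and no cell type, and the cells were put in 4 groups of 311 to 314 cells by it, with 95 cells within 2 points of the bound of the highest group. From the lowest to the highest group of the Bap1ΔMPC cells, *Gap43* stood at 66.8, 84.9, 122 and 235 CPM. In the highest group it was therefore above the 195 CPM of all Bap1WT Dpp4-type cells. *Lgi2* stood at 226, 200, 166 and 102 CPM and *Map2* at 11.1, 9.61, 9.19 and 3.95 CPM, so both were lowest in the highest group. *Chl1* had 1, 3, 6 and 8 UMIs and *Lgi1* 1, 2, 2 and 9 UMIs in these groups, which left *Chl1* at 2.10 CPM in the highest. In the Bap1WT library itself, *Gap43* was at 211, 213, 213 and 142 CPM and *Chl1* at 23.3, 18.3, 13.4 and 7.73 CPM, *Lgi2* at 96.1, 83.8, 73.0 and 55.3 CPM and *Map2* at 1.99, 1.74, 1.64 and 0.859 CPM from the lowest to the highest of 4 groups by the same score. The order of *Lgi2* along the score was thus the same in both libraries. *Map2* in the Bap1WT library rested on 7, 6, 6 and 3 UMIs with overlapping intervals, so no order is read for it there. A Dpp4-type cell of the Bap1ΔMPC library was at or above the Bap1WT median in 7.51% of cases. The genes of the score were chosen because they differed between these same libraries, so a low share was in part set by that choice.

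Cells chosen by 2 or more UMIs of a marker set showed where within the libraries the genes were counted. Cells with *Spon1*, *Cldn2*, *Hsd11b2* or *Angpt4* numbered 438 in the Bap1WT library and 1368 in the Bap1ΔMPC library. In the Bap1ΔMPC library they held 142 of the 185 *Cntn1* UMIs (8.82 CPM, against 1.29 in the remaining cells) and 82 of the 121 *Chl1* UMIs (5.09 against 1.17 CPM). In the Bap1WT library *Cntn1* stood at 1.34 against 0.577 CPM and *Chl1* at 3.36 against 5.99 CPM. Only 21 and 54 cells of the set were Dpp4-type, while the remaining cells held 1029 and 1197 Dpp4-type cells. *Chl1* stood at 15.7 CPM in Dpp4-type and 1.87 CPM in other cells of the Bap1WT library, so its values there carry this difference in make-up. Without the *Spon1*, *Cldn2*, *Hsd11b2* or *Angpt4* cells, the log2 ratio of other cells was 1.13 for *Cntn1*, in place of 2.64, and -0.52 for *Chl1*, in place of 0.66. The *Cntn1* increase in other cells was then under 3-fold, the *Chl1* increase was no longer seen, and the *Gap43* log2 ratio was -0.67 in place of -1.14. Cells with *Chad*, *Tnmd* or *Cilp2*, genes of tendon and cartilage, numbered 181 and 349. In the Bap1ΔMPC library they held 20 of the 60 *Lgi1* UMIs (4.64 against 0.884 CPM), in only 6 of the 349 cells. In the Bap1WT library *Lgi1* had 6 UMIs in them (2.51 against 3.11 CPM). Only 8 and 25 cells of the set were Dpp4-type, while the remaining cells held 1042 and 1226 Dpp4-type cells. *Lgi1* stood at 7.51 CPM in Dpp4-type and 1.38 CPM in other cells of the Bap1WT library, so its values there carry this difference in make-up. *Nrcam* stood at 19.7 CPM in the *Chad*, *Tnmd* or *Cilp2* cells of the Bap1WT library against 5.49 CPM in its remaining cells, and at 5.34 against 5.48 CPM in the Bap1ΔMPC library. In cells with *Lgr5*, *Pappa2* or *Kdr* (216 and 88 cells), *Nrcam* stood at 13.8 against 5.62 CPM and at 11.2 against 5.33 CPM.

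**Figure D4:**
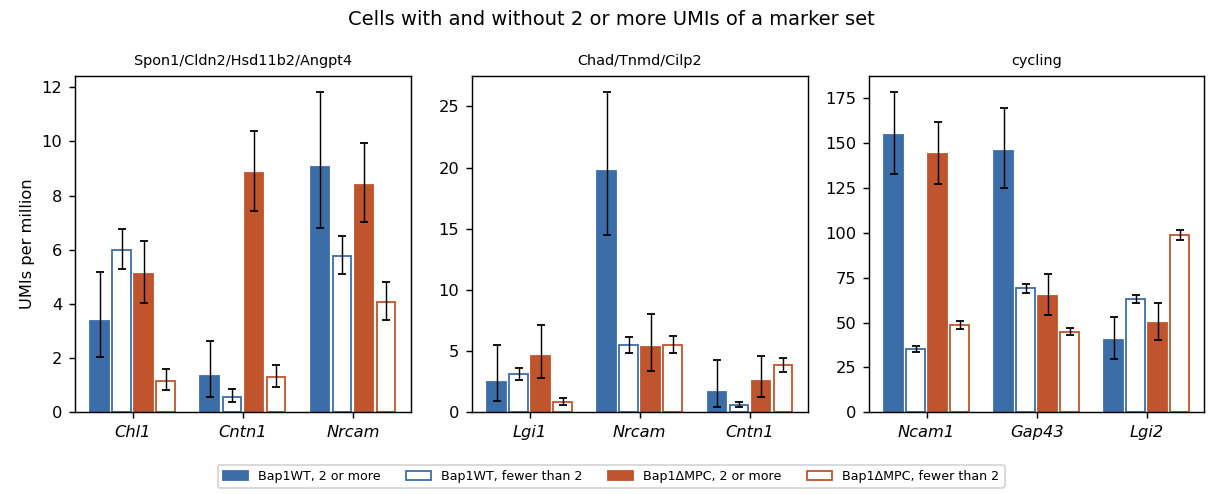
Level in CPM in cells with 2 or more UMIs (filled bars) or fewer (open bars) of a marker set, in the Bap1WT (blue) and Bap1ΔMPC (orange) libraries, with exact Poisson 95% intervals; the sets are Spon1/Cldn2/Hsd11b2/Angpt4 (left), Chad/Tnmd/Cilp2 (middle) and 5 cycling markers (right). *Cntn1* reaches 8.82 CPM in the filled orange bar on the left, and *Ncam1* reaches 155 and 144 CPM in cycling cells.

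Cells with *Krt7* or *Plet1* numbered 10 among Dpp4-type cells of the Bap1WT library and 215 among those of the Bap1ΔMPC library. In these 215 cells *Lgi2* stood at 247 CPM against 157 CPM in the remaining Dpp4-type cells and *Map2* at 17.3 against 6.49 CPM, and the 18 *Chl1* and 14 *Lgi1* UMIs of the Dpp4-type cells were all in the remaining cells, where 1.35% and 1.26% of cells had one. At such shares, a difference from the 215 cells was not detectable at this depth. Among other cells, those with *Wnt4*, *Pcsk2* or *Rtl4* numbered 12 and 409, and in the 409 cells *Lgi2* stood at 109 against 57.9 CPM and *Map2* at 13.7 against 6.31 CPM. In cells with *Hmcn1*, *Meox1* or *Etv4* (956 and 462 cells), *Lgi2* stood at 38.5 CPM against 70.4 in the Bap1WT library and at 43.3 against 104 in the Bap1ΔMPC library. Of these cells only 27 and 22 were Dpp4-type, while the remaining cells held 1023 and 1229 Dpp4-type cells, in which *Lgi2* was higher than in other cells. In cells with *Fmo2*, *Angpt2* or *Stc1* (811 and 116 cells), *Ncam1* stood at 17.9 CPM against 42.8 and at 27.3 against 53.1, and only 25 and 3 of these cells were Dpp4-type. Cycling cells, with 2 or more UMIs of *Top2a*, *Mki67*, *Cdk1*, *Birc5* and *Ube2c*, numbered 82 and 141. *Ncam1* stood at 155 CPM in those of the Bap1WT library against 35.1 in its remaining cells, and at 144 against 48.7 CPM in the Bap1ΔMPC library. *Gap43* stood at 146 against 69.1 CPM and at 65.0 against 45.0 CPM.

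Detection of pairs of the genes in single cells was compared in counts thinned to 5000 UMIs per cell. In Dpp4-type cells *Tmeff1* was seen in 20.0% of cells with *Gap43* and in 13.5% of cells without it in the Bap1WT library, and in 12.4% and 6.79% in the Bap1ΔMPC library. The intervals overlapped in the first library (16.6% to 23.7% and 10.7% to 16.8%) and did not in the second (9.21% to 16.3% and 5.18% to 8.70%). In other cells of the Bap1ΔMPC library *Map2* was seen in 6.69% of cells with *Lgi2* and in 2.73% of cells without it (intervals 4.90% to 8.87% and 2.10% to 3.48%). In Bap1WT Dpp4-type cells *Chl1* was seen in 3.21% of cells with *Lgi2* and in 6.93% of cells without it (intervals 1.48% to 6.01% and 5.20% to 9.01%).

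Over the cells of a library, the gene whose log-normalized level was most like that of *Gap43* was *Efhd1* in the Bap1WT library (Pearson r = 0.588 over 4103 cells), and *Efemp1* in the Bap1ΔMPC library (r = 0.422 over 4378 cells). *Efemp1* is also part of the score. *Tmeff1* was most like *Sbsn* (r = 0.535), *Akr1c18* (0.470) and *Aldh1a3* (0.452) in the Bap1WT library, and most like *Car8* (0.264), *Opcml* (0.259) and *Itgb7* (0.255) in the Bap1ΔMPC library. *Lgi2* was most like *Ret* (0.319), *Lamc1* (0.302) and *Nid1* (0.301) in the first library and *Pla1a* (0.471), *Pcsk6* (0.441) and *Limch1* (0.418) in the second, so none of the 3 was shared. *Ncam1* was most like *Stmn1* (0.253) and *Nrcam* like *1500015O10Rik* (0.238) in the Bap1WT library, and neither reached 0.2 with any gene in the Bap1ΔMPC library, nor did *Map2*. The cells of a library share its depth and its free RNA, and these values are descriptions.

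A wider list of 109 genes of neural adhesion and neurite growth, compiled with earlier results of these data known, was counted in the same way. In Dpp4-type cells 75 of them had 20 or more UMIs, of which 9 were over 3-fold higher and 4 over 3-fold lower in the library labelled Bap1ΔMPC, where 1.89% and 1.63% of all genes tested were. In other cells 91 did, of which 18 were over 3-fold higher and 4 over 3-fold lower, where 3.68% and 2.18% of all genes were. In all cells 91 did, of which 15 were over 3-fold higher and 5 lower, where 3.15% and 2.12% of all genes were. The median log2 ratio of the list was 0.28 in Dpp4-type and 0.42 in other cells, beside 0.07 and 0.11 over all genes tested. The median size of the log2 ratio, regardless of direction, was 0.66 and 0.75 beside 0.25 and 0.27. The list was not matched to all genes in UMIs, and counting error widens the ratios of genes with few UMIs. How far it enters these differences and the counts over 3-fold was not tested.

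Partners of the L1 family were counted with the family. *Ank3*, which encodes ankyrin-G, a binding partner of L1 family proteins, had 381 UMIs (27.0 CPM) in Dpp4-type cells of the Bap1WT library and 85 UMIs (5.76 CPM) in those of the Bap1ΔMPC library, a ratio of 0.213. In other cells *Ank3* had 769 and 266 UMIs, a ratio of 0.367. *Nfasc*, the family's remaining gene, went the other way in other cells, from 16 UMIs (0.434 CPM) to 207 UMIs (5.95 CPM), 13.7-fold. Among contactins, *Cntn2* had 67 and 9 UMIs in Dpp4-type cells, a ratio of 0.128 (interval 0.0563 to 0.259). In other cells it had 3 and 22 UMIs, a ratio of 7.78 with a counting interval of 2.34 to 40.6, so its direction was opposite in the 2 cell groups. Of the immunoglobulin superfamily, *Ncam2* had 3 and 48 UMIs in other cells, with a ratio of 17.0 and a counting interval of 5.47 to 85.2. *Cadm4* had 26 and 106 UMIs in Dpp4-type cells, 3.90-fold higher.

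The largest block of the list, 34 genes of synaptic and leucine-rich adhesion, held 6 of the 9 genes that were over 3-fold higher and 1 of the 4 that were over 3-fold lower in Dpp4-type cells, and 12 of the 18 higher and 3 of the 4 lower in other cells. *Clstn2*, a calsyntenin, had 7 and 136 UMIs in Dpp4-type cells (18.6-fold) and 11 and 200 UMIs in other cells (19.3-fold). *Slitrk5* had 5 and 117 UMIs (24.8-fold) in other cells, and *Tenm2*, *Nlgn1* and *Tenm1* were 13.7-fold, 9.71-fold and 9.55-fold higher there. *Nlgn3* and *Adgrl3* were 4.22-fold and 3.44-fold higher in Dpp4-type cells. Against this direction, *Nrxn3*, a presynaptic neurexin, had 45 and 6 UMIs in Dpp4-type cells (ratio 0.128) and 84 and 9 UMIs in other cells (ratio 0.114). *Tenm3* had 1736 and 462 UMIs (ratio 0.282) and *Lrrtm3* had 187 and 42 UMIs (ratio 0.238) in other cells. Of 11 growth cone genes with 20 or more UMIs in Dpp4-type cells, *Stmn3* was over 3-fold higher (49 and 165 UMIs, 3.22-fold) and none was over 3-fold lower. Of 12 neurite cytoskeleton genes there, none was over 3-fold in either direction, and of 13 in other cells *Nefl* was over 3-fold higher (5 and 23 UMIs, 4.88-fold) and *Dcx* over 3-fold lower (27 and 8 UMIs, ratio 0.314). Of the 5 ADAM receptor and remaining LGI genes none was over 3-fold in Dpp4-type cells, and in other cells *Lgi3* alone was, with 115 and 352 UMIs (3.25-fold higher). The single TMEFF gene of the list, *Tmeff2*, had log2 ratios of -0.31 and -0.25.

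**Figure D5:**
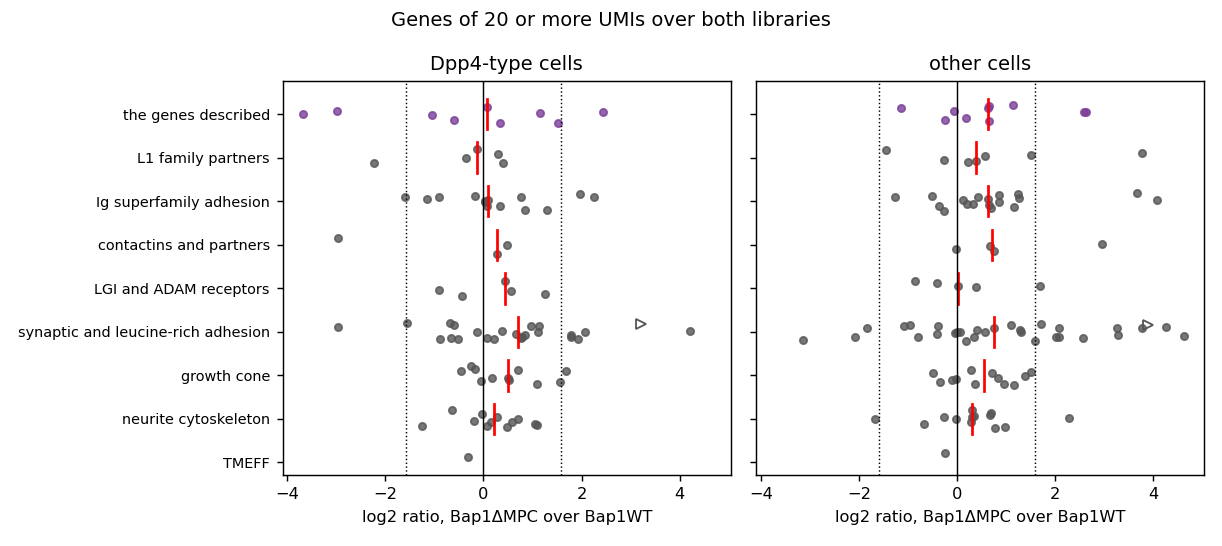
Log2 ratio, Bap1ΔMPC over Bap1WT, of the genes described (purple) and of the 109 listed genes by group (grey) in Dpp4-type cells (left) and other cells (right), for genes with 20 or more UMIs over both libraries. Red ticks are medians, dotted lines mark 3-fold and open triangles are genes with no UMI in the Bap1WT library, set at 3 UMIs there. The synaptic and leucine-rich group has a median of 0.71 in Dpp4-type cells and 0.76 in other cells, with *Clstn2* at 4.22 and 4.27.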

How the data were processed

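scRNA-Seq counts of FAPs were analysed for 1 Bap1f/f library and 1 Prx1-Cre;Bap1f/f library. Per the submitters' processing notes and the study's methods, the authors sequenced 3′ libraries with UMIs and made the deposited raw counts per gene and cell with Cell Ranger (3.1.0) against mm10, with quality control, doublet gating and removal of cells high in markers of other muscle cells in Seurat (3.2.1); whether the deposited tables precede the last of these steps is not given in the sources used here. FastQC (0.11.7), bcl2fastq (2.20.0) and R (3.6.1) are also named in those notes. No doublet caller was run here. Whether counting used strand is not given in the sources used here.

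UMIs were summed per library and cell group, as all cells, Dpp4-type cells and other cells. Levels have exact Poisson intervals, shares of cells exact Clopper-Pearson intervals, and ratios of CPM exact conditional binomial intervals, all at 95% in scipy 1.17.1 (Python 3.11.15, numpy 2.4.6, pandas 2.3.3, matplotlib 3.10.9). A gene was counted in a comparison when it had 20 or more UMIs over both libraries, and called when over 3-fold, with 3 counts as the floor for a count of 0. No p-value was computed, since each genotype had 1 library and cells are not replicates. Cells were thinned to 5000 UMIs for shares at equal depth. TMM factors came from edgeR 4.0.16 in R 4.3.3, with no test. The steps were tested on simulated data.

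The members and lists were chosen with earlier results of these data known. Named genes were the 10 members, *Bap1*, the marker genes, the 8 genes of the wider list with the largest log2 ratios in Dpp4-type and in other cells among those over 3-fold with 50 or more UMIs, and, for members in 5% or more of the cells of a library, the 3 genes with the highest correlation if r was 0.2 or more. *Lgi3*, *Tmeff2*, *Tenm3*, *Lrrtm3*, *Nefl*, *Dcx* and the genes overlapping members were named in addition, after their values were seen. Other alternatives were the score threshold, *Dpp4* UMIs as the rule, other minimums and folds, and leaving out shared barcodes, deep cells, cycling cells and marker-chosen cells.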

Additional observations from a re-analysis of the deposited data

Results flagged for a closer look

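The log2 ratio of *Chl1* between the library labelled Bap1ΔMPC and the library labelled Bap1WT was -3.68 in Dpp4-type cells and 0.66 in other cells, and was picked out because the directions were opposite in the 2 cell groups. For *Tmeff1* the log2 ratio was -1.05 in Dpp4-type cells and 1.15 in other cells, again in opposite directions. The difference between the cell groups was not tested for either gene, as there was 1 library per genotype. For *Chl1* the direction in other cells changed when cells with *Spon1*, *Cldn2*, *Hsd11b2* or *Angpt4* were left out, to a log2 ratio of -0.52.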

How the results depend on the processing

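No paired analysis was possible because there was a single library of either genotype, so no replicate could be left out. Of 389 ratios of the 10 genes under alternatives, 337 stayed within the counting interval of the reported ratio and 52 did not. *Chl1* and *Lgi1* in Dpp4-type cells and *Map2* in every cell group were over 3-fold in all 13 alternatives, with log2 ratios of -6.41 to -2.60 for *Chl1* and -4.04 to -1.77 for *Lgi1*. TMM scaling moved the median log2 ratio of all genes in other cells from 0.11 to -0.01.

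Of 186 counts of genes past a fold, 163 stayed within 1.5 times. With thinned cells, 3 listed genes were lower in all cells and 5 higher in Dpp4-type cells, where 239 of 13416 and 149 of 11178 genes tested were. At a threshold of 10, 2 of the 10 genes were higher in Dpp4-type cells and 1 lower in other cells (*Gap43*). There, 255 of 13215 and 289 of 13949 genes tested were. At 50, 5 listed genes were higher and 7 lower in Dpp4-type cells, where 191 and 205 of 11583 genes tested were. With a fold of 2, 2 of the 10 genes and 8 listed genes were lower in all cells, where 791 of 14729 genes tested were. *Cntn1* and *Map2* were higher past this fold in all cells, at log2 ratios of 2.49 and 2.55, where 977 genes were. In Dpp4-type cells 3 of the 10 and 17 listed genes were higher and 7 listed genes lower, where 543 and 565 of 12517 genes tested were. Of the 10 genes, *Chl1*, *Lgi1* and *Tmeff1* were lower past this fold there, at log2 ratios of -3.68, -2.99 and -1.05. In other cells 1 of the 10 and 7 listed genes were lower and 28 listed genes higher, where 749 and 1031 of 14271 genes tested were. Of the 10 genes, *Cntn1*, *Map2* and *Tmeff1* were higher past this fold there, at log2 ratios of 2.64, 2.59 and 1.15. With a minimum of 100 UMIs, 4 listed genes were higher and 2 lower in Dpp4-type cells, where 83 and 84 of 10178 genes tested were. In other cells 10 were higher and 2 lower, where 231 and 151 of 11877 genes tested were. With no minimum, 2 of the 10 genes were higher in Dpp4-type cells (*L1cam* and *Map2*), where 498 of 14473 genes tested were. In alternatives chosen after seeing the data, 1 of the 10 genes was higher (*Map2*) and 1 lower (*Chl1*) in all cells, and 1 was higher in other cells (*Map2*), without cells with *Spon1*, *Cldn2*, *Hsd11b2* or *Angpt4*. In all cells 366 and 332 of 14328 genes tested were then higher and lower, and in other cells 427 of 13698 were higher. Without cells with *Chad*, *Tnmd* or *Cilp2*, 1 of the 10 genes was lower in all cells (*Lgi1*), where 329 of 14603 genes tested were. The cause was not tested. At this depth *L1cam* and *Cntn1* in Dpp4-type cells rest on 20 UMIs or fewer over both libraries.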
